A study of Mus musculus with 2 samples.

Results

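The 10 genes described here are the classical MHC class I genes H2-K1 and H2-D1, the Qa-region genes H2-Q4, H2-Q6 and H2-Q7, the T-region genes H2-T22 and H2-T23, the class I transactivator Nlrc5, and the peptide transporter genes Tap1 and Tap2. They were chosen by symbol from 32285 listed genes, and each symbol was listed once. The choice was made with treated and PBS values of these data already known, so those values are given as a description. The cells came from subcutaneous tumours of 4T1, a carcinoma line of the mouse mammary gland that arose in a BALB/c animal. In the treated group the tumour-bearing mice received phototherapy mediated by AIE COF (COF stands for covalent organic framework), and the tumours were taken on day 7 after it. The other group received PBS, and all other label fields are the same for both groups, including a strain written as C57BL/c, a name left as it stands. Each group is 1 library, and no source used here gives the number of animals behind it. No difference below therefore has a replicate check or a p-value, and every interval is a 95% interval that covers counting error only.

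MHC class I molecules show peptides made inside a cell to CD8 T cells, and natural killer cells sense their loss. Peptides cut by the proteasome enter the endoplasmic reticulum through the transporter made of TAP1 and TAP2, where they are loaded onto a heavy chain bound to the light chain beta-2 microglobulin. NLRC5 has no DNA-binding activity of its own in this role, and acts through RFX, CREB or ATF1 and NF-Y factors bound to a shared promoter module, while NF-kB and interferon regulatory factors bind an enhancer and an interferon response element further upstream. Qa and T-region products are less variable class I molecules. H2-Q6 and H2-Q7 belong to the genes of the Qa-2 antigen, the product of H2-T22 is a ligand of some gamma delta T cells, and H2-T23 encodes Qa-1, a ligand of the CD94 and NKG2A receptor on natural killer and T cells.

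Of these genes 9 gave UMIs, each UMI being 1 counted transcript molecule. In all, 8 members matched an entry among RefSeq promoters of GRCm38.p6, and Nlrc5 and Tap2 had none. The 4 sequences below show how far the arrangement is shared between a classical gene, the Qa-region gene with the lowest treated over PBS ratio, its neighbour H2-Q7 and a T-region gene. Each is written 5′ to 3′ along the gene, and capitals mark matches to GGGGATTCCC or GGGGATTTCCC (enhancer A), TTTCACTT (interferon response core), TGATGAC (X2 element) and CCAAT or its reverse ATTGG (Y box).
H2-K1, chr17:34000348-34000557, minus strand: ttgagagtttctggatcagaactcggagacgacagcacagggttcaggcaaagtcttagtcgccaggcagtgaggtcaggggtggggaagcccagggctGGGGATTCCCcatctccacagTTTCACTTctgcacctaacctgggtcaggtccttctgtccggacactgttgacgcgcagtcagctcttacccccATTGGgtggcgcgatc
H2-Q4, chr17:35379407-35379616, plus strand: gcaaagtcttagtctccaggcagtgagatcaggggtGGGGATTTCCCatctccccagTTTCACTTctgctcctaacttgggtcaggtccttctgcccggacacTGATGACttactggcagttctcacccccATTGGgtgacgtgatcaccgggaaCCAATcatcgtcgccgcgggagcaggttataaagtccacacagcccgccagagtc
H2-Q7, chr17:35438945-35439154, plus strand: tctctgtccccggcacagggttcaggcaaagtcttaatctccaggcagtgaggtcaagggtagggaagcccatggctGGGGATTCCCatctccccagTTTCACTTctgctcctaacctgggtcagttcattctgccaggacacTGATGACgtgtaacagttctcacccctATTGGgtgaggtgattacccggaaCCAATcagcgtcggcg
H2-T22, chr17:36042743-36042952, minus strand: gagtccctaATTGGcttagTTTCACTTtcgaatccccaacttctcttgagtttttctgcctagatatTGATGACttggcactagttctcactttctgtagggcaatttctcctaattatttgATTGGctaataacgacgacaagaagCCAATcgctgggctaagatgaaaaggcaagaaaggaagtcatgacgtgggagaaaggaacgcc

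Within 250 bases upstream of the start, on either strand, GGGGATTCCC was present in H2-K1, H2-D1, H2-Q6 and H2-Q7 and in 0.0814% of 27025 promoters. H2-Q4 held the longer spelling GGGGATTTCCC, found in 0.0185% of promoters. TTTCACTT was present in H2-K1, H2-D1, H2-Q4, H2-Q6, H2-Q7 and H2-T22 and in 1.44% of promoters, and TGATGAC in H2-D1, H2-Q4, H2-Q6, H2-Q7 and H2-T22 and in 2.77%. CCAAT was in all 8 matched members and in 34.5% of promoters. In H2-Q4 the enhancer A letters ran from base -174 to -164 before the start, the interferon core from -153 to -146 and TGATGAC from -107 to -101, and in H2-Q7 the corresponding matches were at -133 to -124, -113 to -106 and -67 to -61. H2-T22 held the interferon core and TGATGAC but neither enhancer A spelling in this window. The letters were picked after the members' promoters had been read, so the matches are a description of sequence and not evidence of a bound site.

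The class I members and the transporter genes lie on chromosome 17 and Nlrc5 on chromosome 8 (GRCm38, GENCODE M21). H2-K1 spans chr17:33996017-34000347, H2-D1 chr17:35262730-35267499, H2-Q4 chr17:35379617-35385290, H2-Q6 chr17:35424850-35430055, H2-Q7 chr17:35439155-35443773, H2-T22 chr17:36037128-36042747, H2-T23 chr17:36029773-36032855, Tap1 chr17:34187553-34197225, Tap2 chr17:34203527-34216321 and Nlrc5 chr8:94434356-94527272. All 10 are annotated as protein coding. H2-T23 lies wholly inside A930015D03Rik, a gene on the opposite strand that gave 3602 UMIs, and H2-T23 was listed at 0 UMIs in both libraries. The 0 values of B2m, the light chain gene, which lies inside Patl2, and of the proteasome gene Psmb10, inside Gm16156, have the same arrangement, so these 3 genes are listed at 0 and nothing is read from that about their expression. A930015D03Rik also overlaps the last 500 bases of H2-T22, whose values may be too low. Parts of these transcripts also occur in other genes. Of the 50-base windows in the last 500 transcript bases, 59.2% of those of H2-T22 also occurred in H2-T10, and 35.9% of those of H2-Q6 and 33.7% of those of H2-Q4 occurred in other genes, against 9.53% for H2-D1, 6.21% for H2-Q7, 0.443% for H2-K1 and 0 for Nlrc5, Tap1 and Tap2. The mm10 build carries C57BL/6 sequence, whose class I haplotype differs from that of BALB/c, and the part of this in the counts was not tested. Levels are therefore not compared between genes. The strain of the host is not resolved either, so tumour and host cells may differ in haplotype, and the part of this in levels set side by side for Ptprc-low and immune cells was not tested.

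The libraries held 10002 treated and 8962 PBS barcodes with 115576457 and 145045294 UMIs, and 39 barcode sequences occurred in both. Filtering left 8619 cells of the treated and 7864 of the PBS library, with median depths of 3880 and 6380 UMIs. Clusters were built without the members and without the related gene lists. Of 20 clusters, 17 had at least 100 cells in both libraries. The 4 clusters that were low in Ptprc, which encodes the leukocyte antigen CD45, and rich in RNA held 2444 treated and 2711 PBS cells and are called Ptprc-low here, because the 11 epithelial markers fixed for a carcinoma name summed to 2.49 and 3.31 CPM in them (CPM are UMIs per 1000000 UMIs of that library and class). The 7 fibroblast markers summed to 3190 and 3590 CPM in the same cells, with 4 of them higher in the treated library, and no cell type name is given to these clusters. Named immune clusters held 4655 treated and 2405 PBS cells, comprising B-like, T or NK-like, macrophage-like, monocyte-like, dendritic-like and plasma-like cells. Ptprc-low cells had median depths of 29982 and 35002 UMIs and gave most UMIs of each library.

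Over all cells, class I transcripts were somewhat lower in the treated library, and H2-Q4 was the member that stood lowest. H2-Q4, a Qa-region class I gene, had 34.3 CPM in the treated and 54.1 CPM in the PBS library, a log2 ratio of -0.66 (-0.72 to -0.60). H2-Q6 had 92.6 and 121 CPM (-0.38), H2-Q7 had 357 and 435 CPM (-0.29), and Nlrc5 had 48.8 and 58.3 CPM (-0.26). H2-D1 had 807 and 922 CPM (-0.19) and H2-T22 82.6 and 96.5 CPM (-0.22). H2-K1 was nearly level, with 1540 and 1569 CPM (-0.03), and Tap2 had 33.9 and 37.1 CPM (-0.13). Tap1, with 43.1 and 42.0 CPM (0.04, -0.02 to 0.10), was the member whose interval held 0.

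Of the 9 measured members, meaning those with at least 50 UMIs over both libraries, 1 was at least 1.5-fold lower and 0 were at least 1.5-fold higher, and the median log2 ratio was -0.22. Over all 15637 genes measured, 4.94% were at least 1.5-fold lower, 8.61% at least 1.5-fold higher and the median was 0.01. When each cell was given equal weight, 0 members were at least 1.5-fold lower, the members' median was -0.105 and H2-K1 lay above 0 (0.10). The share of named immune cells was 54.0% in the treated and 30.6% in the PBS library, and values within cell classes follow.

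**Figure D1:**
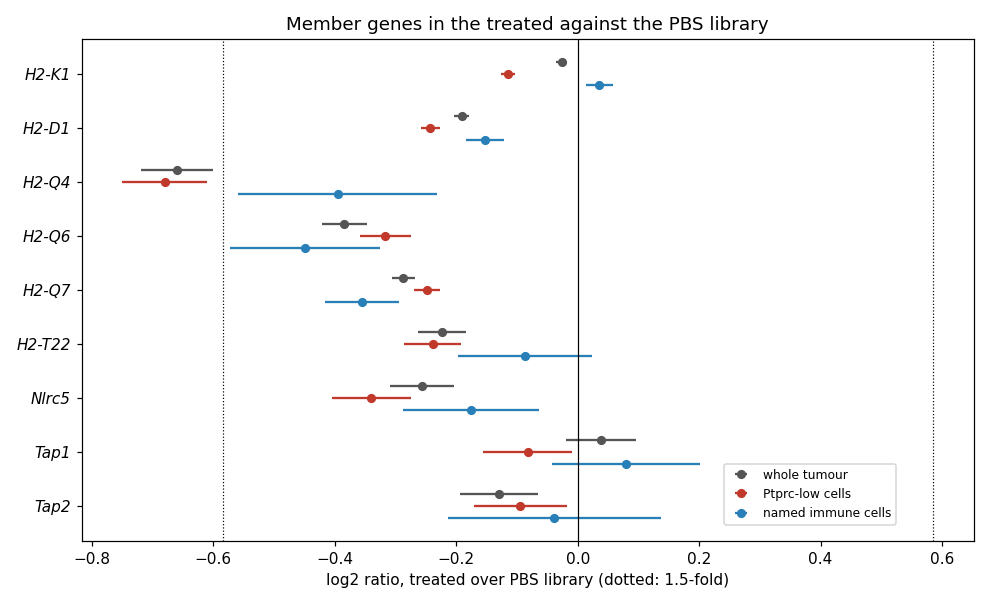
Log2 ratio of each member, treated over PBS library, over all cells, Ptprc-low cells and named immune cells (points; bars are 95% counting intervals, 1 library per group; dotted lines mark 1.5-fold). H2-Q4 has the lowest point over all cells (-0.66) and in Ptprc-low cells (-0.68), and H2-K1 lies on opposite sides of 0 in Ptprc-low (-0.11) and named immune cells (0.04).

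In Ptprc-low cells all 9 measured members lay below 0, with a median log2 ratio of -0.24 against 0.00 for all 14086 genes measured there. H2-Q4 had 32.3 CPM in treated and 51.8 CPM in PBS cells, from 2481 and 5109 UMIs (-0.68, -0.75 to -0.61), and was the 1 member at least 1.5-fold lower, where 4.78% of all genes were at least 1.5-fold lower and 4.34% at least 1.5-fold higher. Nlrc5 had 39.5 and 50.02 CPM (-0.34, -0.41 to -0.27). H2-Q6 followed at -0.32, H2-Q7 at -0.25, H2-D1 at -0.24, H2-T22 at -0.24 and H2-K1 at -0.11, with H2-K1 at 1369 and 1483 CPM. The transporter genes were closest to level, Tap1 at -0.08 (-0.16 to -0.01) and Tap2 at -0.09 (-0.17 to -0.02), and Tap1 lay at 0.15 when each cell was thinned to 1000 UMIs. For scale, 2 genes often used as references also differed in these cells, Actb by -0.10 and Gapdh by -0.50.

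The 4 Ptprc-low clusters differed in the level of class I but not in the side of 0 on which H2-Q4 lay. Cluster 3, led by Cilp, H19 and Tnc, had the highest H2-K1, 2444 CPM treated and 2573 CPM PBS, and cluster 6, led by Dancr and Cdc20, the lowest, 1102 and 1165 CPM. The fibroblast markers summed to 7950 and 8480 CPM in cluster 3 and to 2100 and 2230 CPM in cluster 6, and their part in the class I levels was not tested. Cluster 3 also had the highest level of the interferon-induced gene Ifit1 among them, 177 CPM against 17.5 in cluster 6, each over both libraries together. H2-Q4 stood at 48.8 and 81.9 CPM in cluster 3 (-0.75) and at 28.0 and 43.8 CPM in cluster 6 (-0.64). In cluster 2, led by the hypoxia genes Ero1l, Ankrd37 and Ndrg1, it was 31.2 and 49.2 CPM (-0.66), and in cluster 5, led by replication-dependent histone genes, 30.1 and 45.8 CPM (-0.61). In each of the 4 clusters the interval of H2-Q4 lay below -0.49. H2-K1 was at -0.15 in cluster 2, at -0.07 in cluster 3 and at -0.08 in clusters 5 and 6. Cluster 3 held 423 treated and 608 PBS cells, a smaller part of the treated Ptprc-low cells, and with each cluster given its mean share the members' median was -0.22.

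Summed over the 6 class I genes that gave UMIs, treated Ptprc-low cells thinned to 5000 UMIs held 14.4 class I UMIs each (SD 9.13 over 2371 cells) and PBS cells 16.6 (SD 10.3 over 2628 cells), with medians of 12 and 14. The SDs describe cells of 1 library and are not replicate errors. In treated cells the 5th and 95th percentiles were 4 and 32, and in PBS cells 4 and 36, so the distributions overlapped over nearly their whole range. Cells without a class I UMI numbered 4 of 2371 treated (0.169%, exact upper bound 0.431%) and 5 of 2628 PBS cells (0.19%, upper bound 0.443%). Cluster 3 held the most per cell, 23.7 and 25.9, and cluster 6 11.8 and 13.6.

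Several leukocyte transcripts in Ptprc-low cells differed in the direction opposite to class I, but the sums of some marker lists did not. The natural killer list summed to 4.25 CPM in treated and 5.31 CPM in PBS cells, with 5 of 8 markers higher in treated cells. The monocyte list summed to 1140 and 1160 CPM, with 5 of 7 higher. The plasma, dendritic, neutrophil and mast or basophil lists had higher sums in treated cells. Ptprc was 14.4 CPM in treated and 5.97 CPM in PBS Ptprc-low cells, all 9 macrophage markers were higher in treated cells (65.6 and 49.0 CPM summed) and so were all 8 T cell markers (11.1 and 6.81 CPM summed), with no marker of either list at 0. Of the 8 B cell markers 6 were higher in treated cells, with Cd79a, which encodes a chain of the B cell receptor complex, at 3.06 and 0.81 CPM (1.92) and Ms4a1 at 0 in both libraries, although the list summed to 124 and 137 CPM. Class II genes, which present peptides to CD4 T cells, were low there and higher in treated cells, with Cd74, the invariant chain gene, at 46.7 and 25.7 CPM (0.86). Of 7 measured class II genes 5 were at least 1.5-fold higher in Ptprc-low cells (median 0.85), against 4.34% of all genes. The level of Cd74 in macrophage-like cells was 3357 and 5475 CPM. The part of leukocyte RNA in the values of Ptprc-low cells was not tested.

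In named immune cells the members' median log2 ratio was -0.15, against -0.24 in Ptprc-low cells. H2-Q6 and H2-Q7 lay lower than there, but their ranges over the alternatives overlapped. H2-Q6 ran from -0.461 to -0.231 in immune and from -0.413 to -0.296 in Ptprc-low cells. H2-Q7 ran from -0.369 to -0.168 and from -0.285 to -0.186. The mix of immune classes also differed, with B-like cells 13.9% of treated and 4.64% of PBS cells, and its part was not tested. H2-Q6 had 61.6 CPM treated and 84.1 CPM PBS (-0.45), H2-Q4 36.3 and 47.8 CPM (-0.40, -0.56 to -0.23) and H2-Q7 260 and 333 CPM (-0.36). Nlrc5 had 83.4 and 94.3 CPM (-0.18) and H2-D1 1076 and 1196 CPM (-0.15), while H2-K1 had 2249 and 2195 CPM (0.04). H2-T22 (-0.09), Tap1 (0.08) and Tap2 (-0.04) had intervals that held 0. No member was past 1.5-fold in either direction, where 5.86% of 11575 genes were at least 1.5-fold lower and 3.76% at least 1.5-fold higher and the median of all genes was -0.02.

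Across the 17 clusters, H2-K1 was lowest in Ptprc-low cluster 6 and the RNA-poor Ptprc-low cluster 1 and highest in cluster 13, the T or NK-like cluster led by Ctla4, Tnfrsf4 and Icos, where it reached 3324 CPM treated and 3013 CPM PBS. In the PBS library the classes ran from T or NK-like cells (2429 CPM) through macrophage-like (2240), dendritic-like (2148) and monocyte-like (1730) to Ptprc-low (1483) and B-like cells (1395), and the intervals of macrophage-like and dendritic-like cells overlapped, as did those of Ptprc-low and B-like cells. In the treated library the order was T or NK-like (2409), macrophage-like (2326), dendritic-like (2243), monocyte-like (2068), B-like (1568) and Ptprc-low (1369), and the dendritic-like interval overlapped those of macrophage-like and monocyte-like cells. Nlrc5 was highest in cluster 13 (184 and 149 CPM) and lowest in cluster 6 (33.8 and 41.3 CPM). Tap1 was highest in dendritic-like cells, 130 and 103 CPM, and also lowest in cluster 6, 29.3 and 30.3 CPM.

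H2-Q6 and H2-Q7 ranged more widely across clusters than the classical genes. H2-Q7 was highest in T or NK-like clusters 12 and 13, at 745 and 831 CPM in cluster 12, which is led by the cytotoxic genes Nkg7 and Gzmb, and low in macrophage-like cells, at 161 and 211 CPM. H2-Q6 was lowest in macrophage-like cluster 14, led by Pf4 and C1qc, at 24.3 and 45.0 CPM, and highest in the RNA-poor Ptprc-low cluster 0, at 179 and 194 CPM. H2-Q4 was lowest in monocyte-like cells, at 21.4 and 34.6 CPM, a low count since that class held 1215747 and 894833 UMIs in all. The ranges below carry no interval, and counting error widens them more for genes with few UMIs. The range from the lowest to the highest cluster of the PBS library was 2.59-fold for H2-K1, 2.45-fold for H2-D1, 2.67-fold for H2-Q4, 4.31-fold for H2-Q6 and 4.99-fold for H2-Q7. In the treated library it was 3.02-fold, 2.42-fold, 3.69-fold, 7.36-fold and 7.36-fold in the same order.

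**Figure D2:**
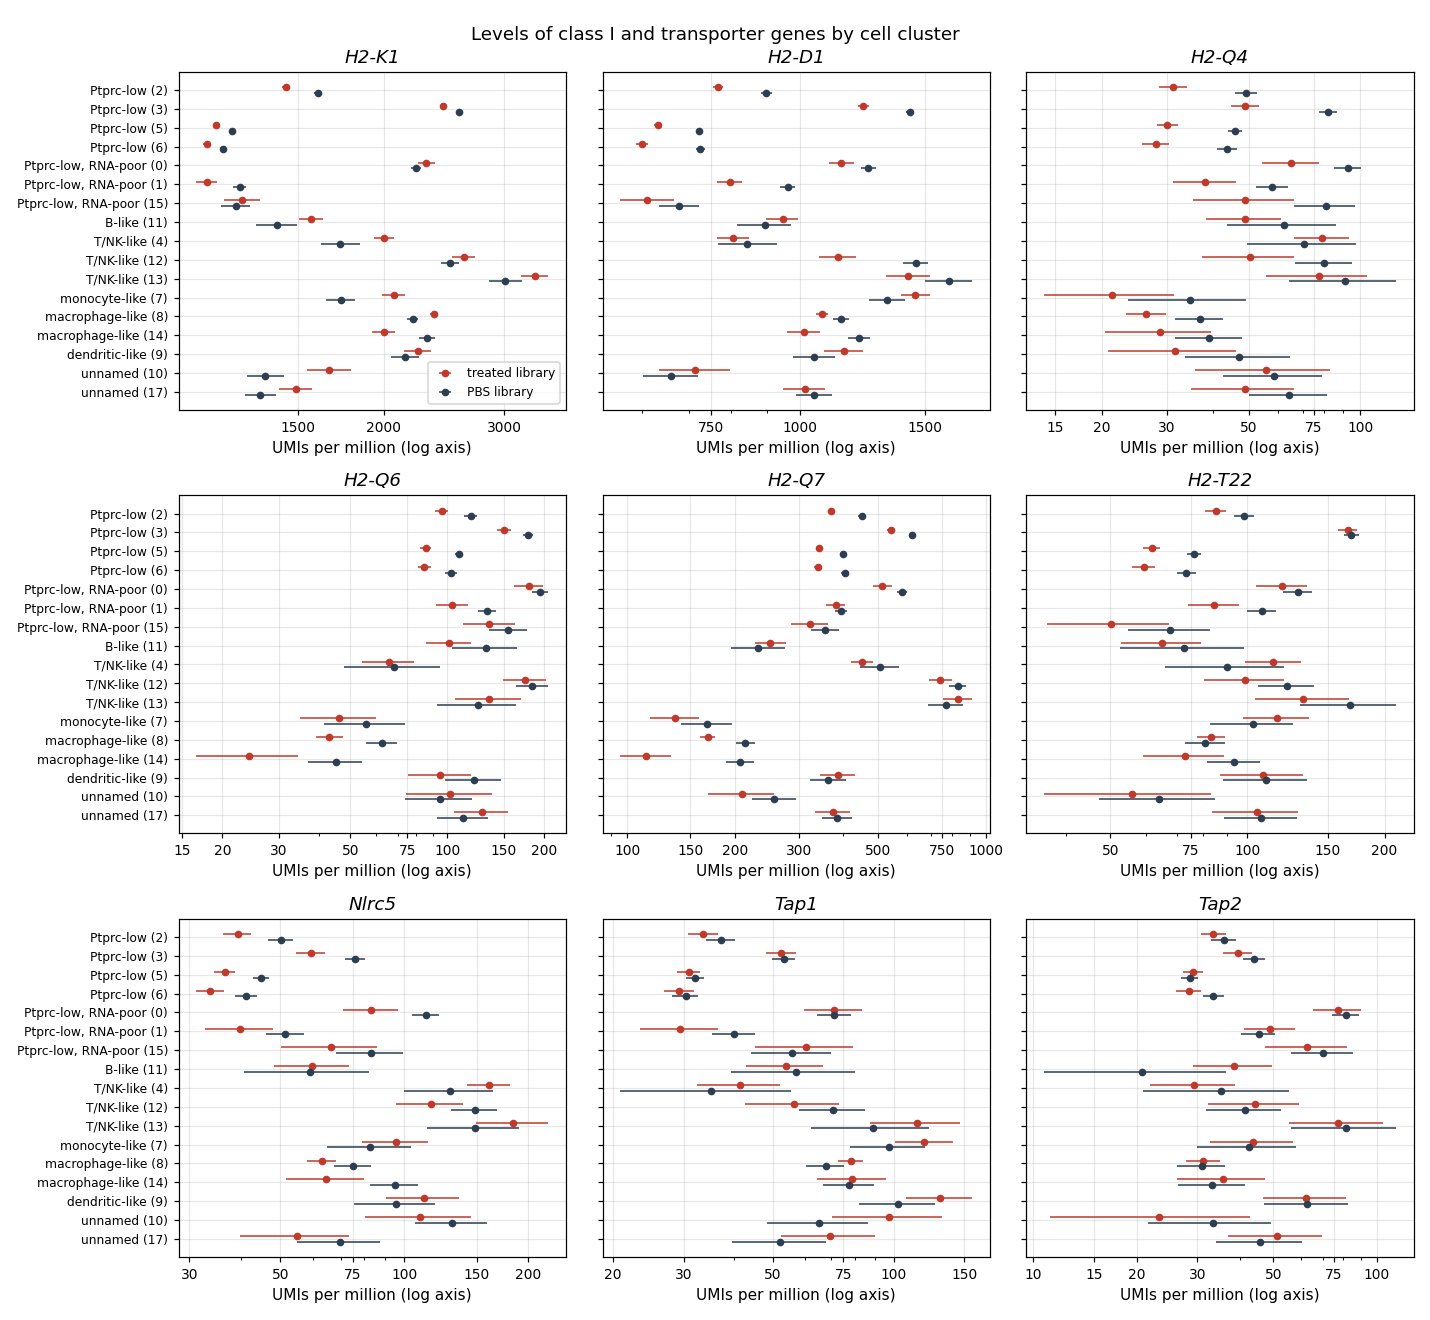
Level of each of the 9 measured members in the 17 clusters, in CPM on log axes that differ between panels, with treated and PBS libraries as separate points and exact Poisson 95% intervals as bars (counting error only). Nlrc5 and Tap1 are lowest in Ptprc-low cluster 6, H2-K1 is highest in cluster 13, and H2-Q6 and H2-Q7 are low in monocyte-like and macrophage-like clusters.

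Over the 34 cluster and library combinations, the levels of the members as log2(CPM + 1) varied together only in part, and these correlations describe points that share libraries and depths. H2-K1 and H2-D1 had r = 0.836, H2-D1 and H2-T22 0.831 and H2-Q6 and H2-Q7 0.783, whereas H2-K1 and H2-Q6 had 0.0216 and H2-Q7 and Tap1 -0.211. Nlrc5 had r = 0.697 with H2-K1, 0.645 with Tap1 and 0.0811 with H2-Q6. Among 9429 genes, AW112010 (0.851) and Tnfsf10 (0.838) were among the 3 most like H2-K1, and those most like Nlrc5 were Clec2d (0.889), Stat5a (0.882) and Tnip1 (0.86). H2-Q7 was most like F2r (0.924) and Zeb1 (0.865), H2-Q4 most like Smg6 (0.788) and Sh3gl1 (0.786), and Tap1 most like Trim30d (0.868) and Alcam (0.866).

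Between libraries, H2-Q4 was at least 1.5-fold lower in 8 of 17 clusters and at least 1.5-fold higher in 0. The share of all genes past 1.5-fold within single clusters is not reported here, so this count has no background beside it. It includes monocyte-like cluster 7, where the interval held 0. H2-Q4 lay below 0 in 16 clusters, and its interval lay below 0 in 9 of them. The exception was T or NK-like cluster 4, which has Dapl1 and Satb1 among its leading genes, at 0.16 (-0.38 to 0.74), from 137 and 36 UMIs. H2-D1 lay below 0 in 13 clusters, with an interval below 0 in 10 and above 0 in 2. H2-K1 was divided, with an interval below 0 in 6 clusters and above 0 in 8. Nlrc5 lay below 0 in 12 clusters, 9 of them with an interval below 0.

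**Figure D3:**
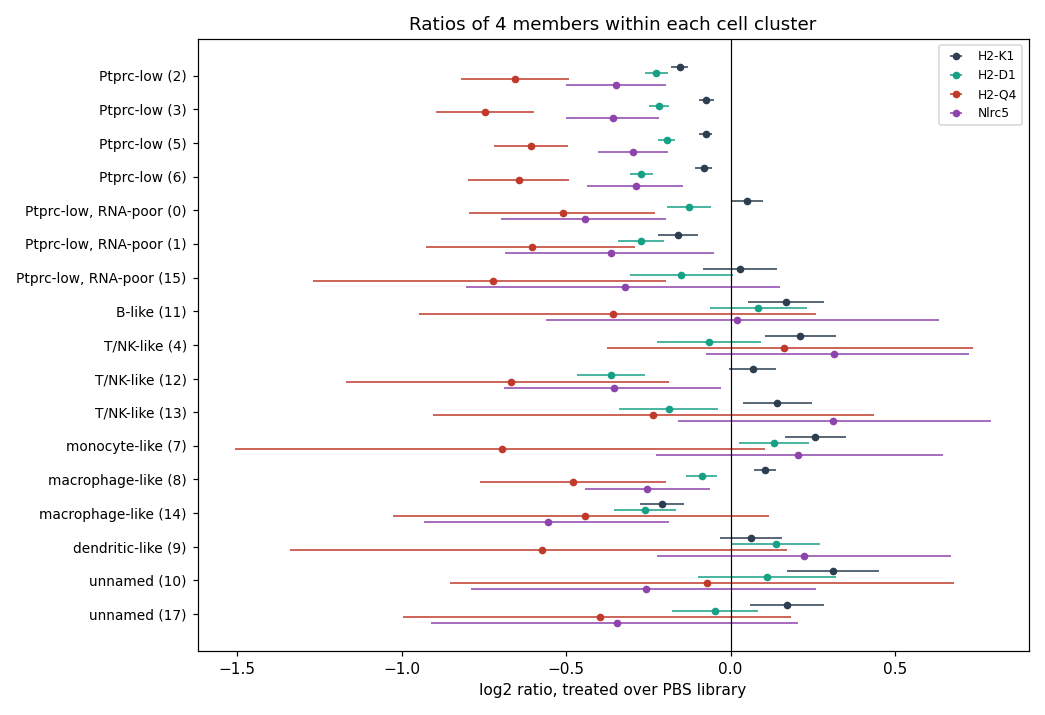
Log2 ratio of H2-K1, H2-D1, H2-Q4 and Nlrc5 in each of the 17 clusters, treated over PBS library (points; bars are 95% counting intervals). H2-Q4 is below 0 in 16 clusters, while H2-K1 intervals lie below 0 in 6 clusters and above 0 in 8.

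In macrophage-like cells, 1305 treated and 940 PBS, the Qa-region genes and Nlrc5 were lower in the treated library while H2-K1 and Tap1 were not. H2-Q4 had 26.7 and 37.6 CPM (-0.49), H2-Q6 40.7 and 56.8 CPM (-0.48), H2-Q7 161 and 211 CPM (-0.39) and Nlrc5 63.1 and 81.5 CPM (-0.37), and each of these intervals lay below 0. H2-K1 had 2326 and 2240 CPM (0.05) and Tap1 78.3 and 70.9 CPM (0.14, -0.02 to 0.30). No member passed 1.5-fold, where 6.52% of genes were at least 1.5-fold lower and 3.57% at least 1.5-fold higher.

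The macrophage-like clusters differed. In cluster 14, with 179 treated and 347 PBS cells, H2-Q6 was at -0.89 (-1.51 to -0.31), H2-Q7 at -0.87 (-1.14 to -0.60) and H2-K1 at -0.21, and in cluster 8, with 1126 and 593 cells, they were at -0.54, -0.35 and 0.10. In the pooled macrophage-like cells, transcripts typical of Ptprc-low cells were present at low level, Hmga2 at 15.8 and 15.96 CPM and Rhox5 at 30.1 and 40.2 CPM, against 382 and 354 CPM and 772 and 733 CPM in Ptprc-low cells. H2-Q7 was 375 and 445 CPM in Ptprc-low cells, and the part of their RNA in the macrophage-like values was not tested.

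In T or NK-like cells, H2-D1 had 1007 CPM treated and 1359 CPM PBS (-0.43), but the clusters that make up the class held different parts of it in each library. The treated library had 1059 cells in cluster 4, 345 in cluster 12 and 244 in cluster 13, and the PBS library 250, 394 and 135. Within them H2-D1 was at -0.07, -0.36 and -0.19, so the pooled value lay outside the range of its parts. H2-K1 was -0.01 in the pooled class and 0.21, 0.07 and 0.14 in the 3 clusters. H2-Q7 had 603 and 755 CPM in the pooled class (-0.32), against -0.16 in clusters 4 and 12 and 0.11 in cluster 13. No member passed 1.5-fold in the pooled class, where 11.1% of genes were at least 1.5-fold lower and 7.5% at least 1.5-fold higher.

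In the smaller immune classes the classical genes were level or higher in the treated library. The point value of H2-Q4 was at least 1.5-fold lower in monocyte-like cells, but its counting interval held 0. H2-Q4 stood there at 21.4 and 34.6 CPM, from few UMIs. Its log2 ratios ran from -1.21 to -0.638 over the alternatives, a spread that does not cover counting error. H2-K1 had 1568 and 1395 CPM in B-like cells (0.17, 0.05 to 0.28) and 2068 and 1730 CPM in monocyte-like cells (0.26, 0.17 to 0.35). H2-D1 had 1454 and 1328 CPM in monocyte-like cells (0.13) and 1154 and 1048 CPM in dendritic-like cells (0.14, or -0.17 with cells thinned to 1000 UMIs). In B-like cells Tap2 was the 1 member at least 1.5-fold higher, from 59 and 12 UMIs (0.88, -0.03 to 1.91), where 6.99% of genes were at least 1.5-fold higher, and 0 members were at least 1.5-fold lower, where 4.43% of genes were. Nlrc5 had wide intervals in these classes, with 92 and 34 UMIs in B-like, 116 and 74 in monocyte-like and 95 and 79 in dendritic-like cells, all of which held 0.

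Genes that act around the members also lay on both sides of 0. Among class I regulators in Ptprc-low cells, 1 of 19 measured was at least 1.5-fold lower and 0 higher, with a median of 0.02. Of all genes measured there, 4.78% were at least 1.5-fold lower and 4.34% at least 1.5-fold higher, so these counts are near the shares of all genes. Irf1, an interferon regulatory factor, had 117 and 119 CPM there (-0.03). Rfx5, a subunit of the factor to which NLRC5 is recruited, was at -0.76 from 41 and 89 UMIs, and Nfkb1, an NF-kB subunit, at 0.54 from 187 and 128 CPM. Of 10 measured interferon gamma genes in Ptprc-low cells 0 were past 1.5-fold in either direction (median -0.22), against the same shares of all genes. Irgm2 was at -0.50 and the chemokine gene Cxcl9 at 0.49.

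Of 7 measured peptide supply genes in Ptprc-low cells 0 were past 1.5-fold (median -0.14), where 4.78% of all genes were lower and 4.34% higher by that much. The immunoproteasome genes Psmb9 (94.2 and 118 CPM, -0.32) and Psmb8 (-0.35) and the proteasome activator gene Psme1 (-0.30) lay below 0, while Psme3, another proteasome activator gene, lay above it (84.9 and 70.2 CPM, 0.27, 0.22 to 0.32). Psmb8 is uncertain because Gm20496 overlaps its last 500 bases. Of 7 measured light chain and loading genes 0 were past 1.5-fold (median 0.00), against the same shares of all genes. Tapbp, the gene of tapasin, which bridges class I to the transporter, had 152 and 171 CPM (-0.17). In named immune cells Irf1 was at -0.01, Psmb9 at -0.16 and Ciita, the class II transactivator related to Nlrc5, at -0.88 from 48 and 60 UMIs.

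By their median, receptors listed for class I and related molecules were lower in the treated library within pooled immune cells. This did not hold over all cells or in the cytotoxic cluster. Of 14 measured, 9 were at least 1.5-fold lower in named immune cells (median -0.74), against 5.86% of all genes, and all 14 lay below 0. Klrc1, which encodes the NKG2A chain that recognises Qa-1, was at -1.75, and Cd8a at -1.30. Within T or NK-like cells 6 of 13 were at least 1.5-fold lower, against 11.1% of all genes, with Klrc1 at 112 and 334 CPM and Cd8a at 213 and 468 CPM. The markers of natural killer cells lay the same way, with 0 of 8 higher in treated cells and sums of 186 and 340 CPM in named immune and 867 and 1500 CPM in T or NK-like cells. Within cluster 12, which held a smaller part of the treated T or NK-like cells, 7 of 13 measured receptors lay above 0 (median 0.08), with the natural killer markers at 2480 and 2280 CPM. Over all cells 2 of 14 receptors, Klrc1 (-0.84) and Klrc2 (-0.69), were at least 1.5-fold lower, against 4.94% of all genes, and 8 of 14 lay above 0 (median 0.06). The list is not confined to leukocytes there. Of the Klra4 UMIs over all cells, 14180 of 15412 treated and 17187 of 19766 PBS UMIs lay in Ptprc-low cells.

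Whether cells with an Nlrc5 UMI held more class I was described after thinning each cell to 1000 UMIs, which left 3.94% of treated and 4.63% of PBS Ptprc-low cells positive, against 58.6% and 70.3% before thinning. In Ptprc-low cells, positive cells had 3.44 class I UMIs against 2.84 in negative cells of the treated library (1.21-fold, 1.08 to 1.35) and 3.92 against 3.41 in the PBS library (1.15-fold, 1.05 to 1.26). Actb differed between the same cells by 1.14-fold in both libraries, and Gapdh by 0.96-fold in the treated and 0.92-fold in the PBS library. In macrophage-like cells the class I ratio was 0.921 (0.811 to 1.04) treated and 0.827 (0.721 to 0.944) PBS, and in dendritic-like cells 1.59 (1.23 to 2.03) from 13 positive cells and 0.82 (0.554 to 1.17) from 9. Over the 17 clusters of both libraries, 34 values in all, 21 lay above 1, 5 with an interval above 1, and 3 had an interval below 1. These values rest on 7 to 134 positive cells each, and the intervals take no account of variation between cells. Whether the relation differs between clusters was therefore not tested.

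**Figure D4:**
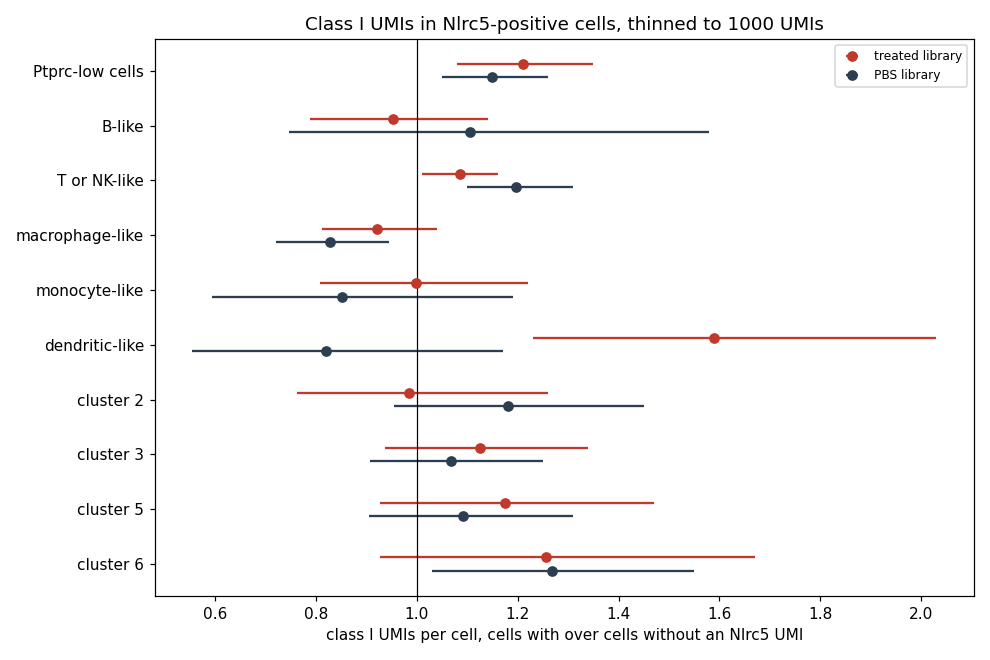
Class I UMIs per cell in cells with an Nlrc5 UMI over those without, after thinning to 1000 UMIs, by class and for the 4 Ptprc-low clusters, treated and PBS libraries (points; bars are 95% counting intervals). Pooled Ptprc-low cells lie at 1.21 and 1.15, macrophage-like cells lie below 1, and among single Ptprc-low clusters the interval of cluster 6 in the PBS library (1.27) lies above 1.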

How the data were processed

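The authors deposited raw UMI counts per gene and barcode, whole numbers that are not normalized, for 2 libraries made with the MobiCube 3' kit per the labels' protocols. Per the submitters' processing notes, STAR and mm10 were used, and no source used here gives their versions, the counting program or the annotation. No barcode of either library had under 500 UMIs.

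Barcodes with at least 200 genes and at most 20% mitochondrial UMIs were kept, and 694 treated and 569 PBS barcodes with the highest Scrublet scores were removed (0.8% per 1000 barcodes). Clusters came from log counts per 10000, 1979 variable genes, 30 components, 15 neighbours and Leiden resolution 1.0 (scanpy 1.11.5), of which 9 took an immune name. A name needed over 50% of a type's detected markers, and at least 3, at 25% of their highest cluster level, each found in 5% of cells or more. Ptprc-low clusters had under 100 CPM of Ptprc and a median of at least 10000 UMIs, and the other unnamed Ptprc-low clusters are called RNA-poor. Cluster 18, led by genes that include Flt1 and Cdh5, was also under 100 CPM of Ptprc but was left unnamed. UMIs were summed per library and class, as CPM. Levels have exact Poisson, shares Clopper-Pearson and ratios exact conditional binomial intervals at 95%, covering counting error only. A gene at 0 has a floor of 3 counts. The ratios and their intervals were tested on simulated Poisson sums with planted changes, which held no variation between cells. Clustering, naming and thinning were not part of that test.

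The members and lists were chosen with earlier results of these data known. The naming rule, the joining of T with NK and of dendritic clusters, the RNA-poor class, the unnamed state of cluster 18, the thinning to 5000 UMIs, the reference genes Actb and Gapdh, the genes Hmga2, Rhox5 and Ifit1, the motif letters and the rule for results given a closer look were set after values had been seen. All 10 members are named. Of each related list, genes are taken from the up to 4 measured ones with the largest ratios and from fixed genes that include B2m, Ciita, Irf1, Psmb8 and Psmb9, and some genes that the rules name are not reported here. Likeness used genes with at least 20 CPM in 1 unit and 500 UMIs in all. Alternatives changed the cell filter, doublets, cell weights, depth, scaling, composition, count minimum, fold threshold and clustering.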

Additional observations from a re-analysis of the deposited data

Results flagged for a closer look

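H2-K1 and H2-D1 lay on opposite sides of 0 in different cell classes of the same pair of libraries, each with a counting interval off 0. H2-K1 was lower in treated Ptprc-low cells (-0.115) and higher in treated B-like (0.168), macrophage-like (0.0541) and monocyte-like cells (0.257). H2-D1 was lower in treated Ptprc-low (-0.243), T or NK-like (-0.432) and macrophage-like cells (-0.126) and higher in treated monocyte-like (0.131) and dendritic-like cells (0.139), the last of which lay at -0.171 with cells thinned to 1000 UMIs. The pooled T or NK-like value of H2-D1 lay outside the range of the clusters in that class, whose shares differed between libraries. H2-K1 lay on opposite sides of 0 in the macrophage-like clusters. All values are log2 ratios of treated over PBS. With 1 library per group the difference between classes was not tested.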

How the results depend on the processing

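Over the alternatives run, 677 of the single member values stayed within the spread used for comparison and 69 moved beyond it, and no ratio past 1.5-fold changed sign. Among ratios with an interval off 0, those that changed sign were H2-K1 over all cells (0.0973 with equal weight per cell and 0.0625 with cells thinned to 1000 UMIs) and, with the same thinning, Tap1 in Ptprc-low cells (0.15) and H2-D1 in dendritic-like cells (-0.171). The count of members at least 1.5-fold lower over all cells was 1, and became 0 with equal weight per cell, 2 at the lower alternative threshold and 0 at 2-fold. With equal weight per cell the members' median log2 ratio was -0.105 over all cells, -0.285 in Ptprc-low cells and -0.104 in named immune cells. In Ptprc-low cells it was -0.26 with doublets left in, -0.301 with each cell thinned to 1000 UMIs, -0.262 with the members among the variable genes and -0.221 with clusters at their mean share of both libraries, the last chosen after seeing the data. In named immune cells the latter weighting gave -0.102. The H2-Q4 ratio ran from -0.668 to -0.509 over all cells and from -0.932 to -0.651 in Ptprc-low cells. Clustering each library apart left 0 monocyte-like PBS cells and so gave no value for that class. Thinning to 2000 UMIs gave class I ratios of 1.27 and 1.20 for Nlrc5-positive Ptprc-low cells. The cause of these shifts was not tested. No replicate could be left out, and no paired analysis was possible because each group is 1 library. Classes with few UMIs, such as B-like Tap2 with 12 PBS UMIs, limit the smaller ratios.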
